A study of Mus musculus with 34 samples.

Results

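The 9 genes described here encode peroxins, the proteins that build, import into and divide peroxisomes: Pex11a, Pex11g, Pex3, Pex16, Pex19, Pex5, Pex7, Pex13 and Pex14. They were chosen by name, and their probes were found by gene symbol among the 55681 probes of the array. Of the 9 genes, 8 were listed under their present symbol and Pex11g under the older symbol Pex11c. Together they had 12 probes, of which 11 passed the detection filter, and the brightest of them stood for its gene, so that 9 of the 15881 genes tested are members.

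Gene expression was measured on one-colour Agilent arrays in the livers of 34 male C57Bl/6J mice aged 14 weeks, 1 array per mouse, killed at zeitgeber time 14. Fenofibrate, a fibrate drug that activates the nuclear receptor PPARA, was given by gavage at 100 mg per kg per day for 10 days, and controls received its vehicle, 3% gum arabic in water. The groups were KO mice, which lack Ppara in the whole body (5 fenofibrate, 3 vehicle), WT mice (4 fenofibrate, 4 vehicle), LKO mice, which lack Ppara in the liver (5 fenofibrate, 4 vehicle), and LWT mice, named in the labels as liver wild type (5 fenofibrate, 4 vehicle). How the liver deletion was made, which part of Ppara was removed, and whether litters were shared are not given in the sources used here.

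Peroxisomes are single-membrane organelles that shorten very long-chain and branched fatty acids and break down hydrogen peroxide, and in rodent liver they multiply under fibrates. Their membrane proteins are placed by PEX19, a soluble chaperone, with its membrane anchor PEX3 and with PEX16, which brings PEX3 to the membrane. Enzymes of the interior carry targeting signals that are read by the receptors PEX5 and PEX7, which dock at a membrane complex of PEX13 and PEX14. Proteins of the PEX11 family bend and elongate the membrane before the organelle divides, and Pex11a is the form known to respond to peroxisome proliferators in rodents.

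Of the 9 genes, 8 had an entry in the RefSeq promoter table for the build GRCm38.p6. Pex19 had none. The 250 bases before the start site were searched on both strands for the motif AGGTCANAGGTCA, a direct repeat bound by PPARA with its partner RXR. Pex11a is shown because it had the largest fenofibrate response of the 9 genes in WT and LWT mice. Pex3 is shown because its response was called in both control lines and differed by the test between each knockout and its wild type. Pex16 met this too and is not shown (7 and 8 of 12 motif letters in the closest matches of its windows). Pex11g is shown because it is the one member whose window held the single repeat unit AGGTCA on either strand. Capitals mark the window closest to the motif, and for Pex11a, where 6 windows were equally close, the first of them.
Pex11a, chr7:79743132-79743381, minus strand: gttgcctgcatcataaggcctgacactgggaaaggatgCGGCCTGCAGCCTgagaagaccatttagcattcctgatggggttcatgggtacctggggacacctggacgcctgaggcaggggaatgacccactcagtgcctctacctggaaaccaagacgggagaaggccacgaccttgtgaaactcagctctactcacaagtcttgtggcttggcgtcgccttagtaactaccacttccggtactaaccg
Pex11g, chr8:3467649-3467898, minus strand: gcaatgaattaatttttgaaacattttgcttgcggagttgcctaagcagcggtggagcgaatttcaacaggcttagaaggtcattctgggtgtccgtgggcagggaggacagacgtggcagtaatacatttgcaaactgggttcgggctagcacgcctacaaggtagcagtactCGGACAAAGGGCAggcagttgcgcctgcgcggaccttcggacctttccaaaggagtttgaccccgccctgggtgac
Pex3, chr10:13553143-13553392, minus strand: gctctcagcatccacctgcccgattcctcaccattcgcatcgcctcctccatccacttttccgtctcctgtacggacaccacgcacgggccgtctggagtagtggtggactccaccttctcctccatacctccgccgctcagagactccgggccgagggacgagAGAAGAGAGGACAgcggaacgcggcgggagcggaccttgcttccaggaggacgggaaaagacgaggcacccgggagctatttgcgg
No member's window held the full motif, which was present in 11 of 32851 promoter windows (0.0335%). The closest window matched 9 of 12 motif letters in Pex11g, 8 in Pex3 and 7 in Pex11a. A match of at least 9 letters (3 or fewer mismatches) was found in 21.3% of all windows, at least 8 letters in 74.5% and at least 7 letters in 99.6%. The unit AGGTCA was held by 14% of all windows. These letters describe the windows searched and no others.

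Between 28180 and 35162 probes per array were well above background. Arrays of the same group had correlations of 0.979 to 0.995 over the 15881 genes tested. Ppara read 5.62 ± 0.41 in KO and 7.04 ± 0.14 in WT mice on fenofibrate (SD), and 5.34 ± 0.27 in KO and 7.02 ± 0.20 in WT mice on vehicle. It read 6.02 ± 0.16 in LKO and 7.01 ± 0.07 in LWT mice on fenofibrate, and 6.11 ± 0.09 in LKO and 7.03 ± 0.23 in LWT mice on vehicle. A probe outside the deleted part would check nothing. All 8 hepatocyte markers passed the detection filter, with a summed level of 12.47 to 12.94 on every array, and 0 of 3 adipocyte markers did. The array of KO vehicle replicate 2 stood apart in the 6 Kupffer cell markers, with a summed level of 8.61 against at most 7.26 on any other array. The arrays lay on 5 slides. The 3 arrays of slide 1 (replicate 1 of KO fenofibrate, KO vehicle and WT vehicle) also matched the authors' own value table less closely than the rest. The source of these differences was not tested. For the 9 peroxins, the differences between KO and WT mice on vehicle are also given without those arrays. Their other results are given so where leaving those arrays out changed a call. Results for other genes and for the markers are given with all arrays only.

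Levels are given as log2 intensity after subtracting the array's own 75th percentile, so they compare mice at one probe and not one gene with another. Differences are log2 changes with their standard error (SE) from limma, adjusted by Benjamini-Hochberg over all 15881 genes, with a threshold of 0.05. Fenofibrate raised 8 of the 9 peroxins in WT mice, beside 10.1% of all genes called higher, and 6 of 9 in LWT mice, beside 10.0%. The median change of the 9 was 0.84 in WT and 0.42 in LWT, beside -0.00 and 0.00 over all genes. In LKO mice limma called 0 of 9, beside 0% of all genes, and in KO mice 0 of 9, beside 0.0126%. At an unadjusted p under 0.05 the count was 0 of 9 in LKO mice, beside 5.80% of all genes, and 0 of 9 in KO mice, beside 11.9%. Their median changes were 0.03 in LKO and 0.03 in KO, beside 0.02 and -0.01 over all genes.

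**Figure D1:**
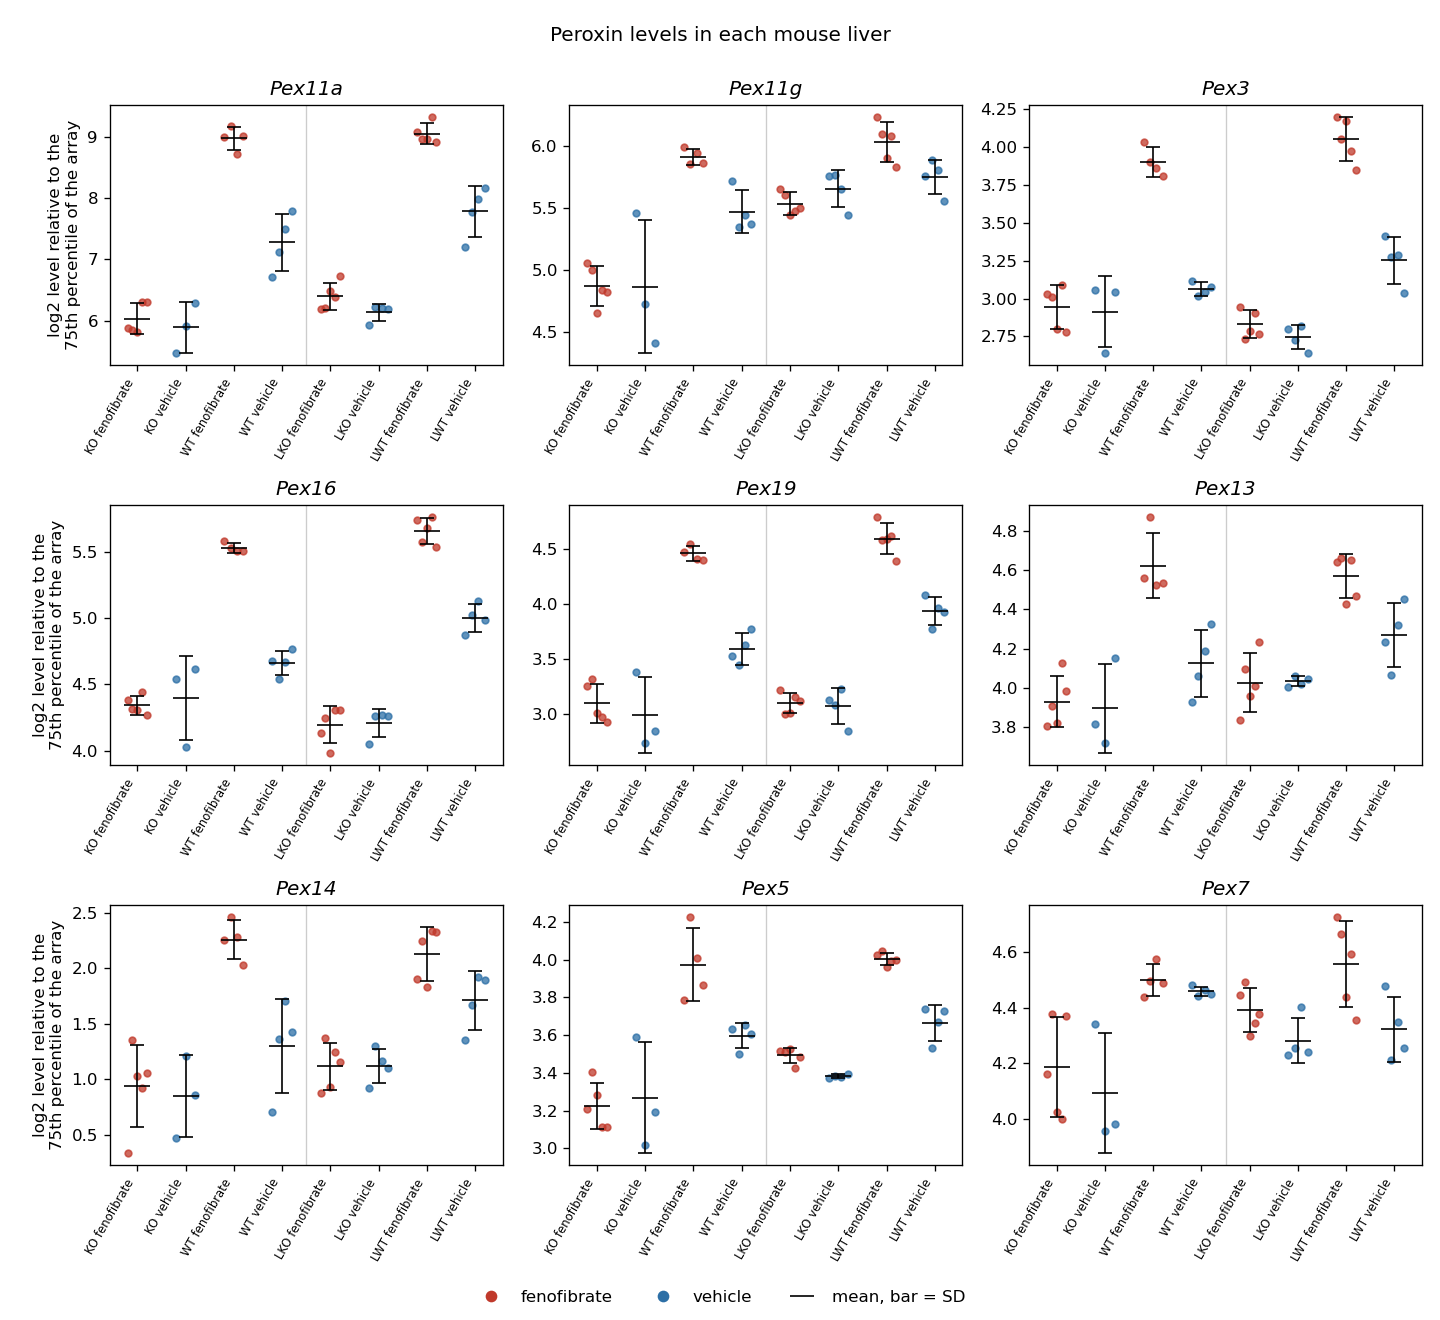
Level of each peroxin in each mouse liver, as log2 intensity minus the array's 75th percentile, for the 8 groups (red points fenofibrate, blue points vehicle, black line and bar mean and SD of 3 to 5 mice). For Pex11a the fenofibrate-treated WT mice lie between 8.72 and 9.18 and the KO mice between 5.81 and 6.31.

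Pex11a, which shapes the membrane of dividing peroxisomes, changed most. Its probe lies at chr7:86882223-86882282 on the minus strand (mm9, as are all probe positions here). It read 9.0, 9.18, 8.72 and 9.01 in WT mice on fenofibrate, against 6.72, 7.12, 7.50 and 7.79 on vehicle. In LWT mice it read 9.08, 8.96, 8.97, 9.33 and 8.92 on fenofibrate, against 7.20, 7.77, 7.99 and 8.17 on vehicle. In both lines every treated mouse lay above every untreated one, as in 12.6% of all genes in WT and 10.7% in LWT. The change was 1.70 ± 0.20, adjusted p = 3.29e-07 in WT (3.24-fold) and 1.27 ± 0.19, adjusted p = 1.48e-05 in LWT (2.41-fold).

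In KO mice Pex11a read 5.87, 5.85, 5.81, 6.31 and 6.31 on fenofibrate, against 5.47, 5.91 and 6.29 on vehicle. In LKO mice it read 6.18, 6.21, 6.48, 6.39 and 6.73 on fenofibrate, against 5.93, 6.23, 6.20 and 6.19 on vehicle. Treated and untreated mice overlapped in both knockouts. Neither change passed the test, at 0.14 ± 0.21, adjusted p = 0.838 in KO (95% interval -0.29 to 0.57) and 0.26 ± 0.19, adjusted p = 0.933 in LKO (-0.13 to 0.65). The response differed between KO and WT by -1.56 ± 0.29, adjusted p = 0.000479, and between LKO and LWT by -1.01 ± 0.27, adjusted p = 0.0200. Without LWT vehicle replicate 1 the LKO difference was -0.82, adjusted p = 0.0586.

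The knockouts also differed from their wild types without the drug. On vehicle Pex11a was lower in KO than in WT mice (-1.39 ± 0.22, adjusted p = 1.82e-05) and lower in LKO than in LWT mice (-1.65 ± 0.20, adjusted p = 8.82e-07). No KO vehicle mouse reached the lowest WT vehicle mouse (6.72), and no LKO vehicle mouse reached the lowest LWT vehicle mouse (7.20). Such separation was found in 14.9% of all genes for KO and in 7.94% for LKO. The KO difference of Pex11a was -1.37 without slide 1 and -1.40 without KO vehicle replicate 2. On fenofibrate the gaps were -2.95 ± 0.19 for KO (adjusted p = 2.21e-13) and -2.66 ± 0.18 for LKO (adjusted p = 9.90e-13). KO mice on fenofibrate thus held 13.0% of the WT level and LKO mice 15.9% of the LWT level. In bulk liver, fewer cells of a type and less RNA per cell cannot be told apart.

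In order of mean level, Pex11a was highest in treated LWT (9.05 ± 0.17, SD) and treated WT mice (8.98 ± 0.19), which overlapped. The untreated LWT (7.78 ± 0.42) and WT mice (7.28 ± 0.46) followed, and these also overlapped. Then came LKO fenofibrate (6.40 ± 0.22), LKO vehicle (6.14 ± 0.14), KO fenofibrate (6.03 ± 0.25) and KO vehicle (5.89 ± 0.41), each overlapping its neighbour. The highest treated LKO mouse (6.73) lay just above the lowest untreated WT mouse (6.72), so these ranges met at 1 mouse of each group.

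Pex11g, another member of the PEX11 family, gave a smaller response. Its used probe lies at chr8:3458831-3458890, minus strand. It read 5.99, 5.86, 5.94 and 5.86 in WT mice on fenofibrate, against 5.72, 5.35, 5.45 and 5.37 on vehicle. LWT mice gave 6.24, 6.10, 5.90, 6.08 and 5.83 on fenofibrate, against 5.76, 5.89, 5.80 and 5.56 on vehicle. The treated WT mice lay above all untreated WT mice, and the LWT groups overlapped. The change was 0.44 ± 0.14, adjusted p = 0.0229 in WT and 0.28 ± 0.13, adjusted p = 0.157 in LWT, so the WT response passed and the LWT response did not. The response did not pass as different between LKO and LWT mice (-0.40 ± 0.19, adjusted p = 0.232), but did without slide 1 (adjusted p = 0.0462). Without slide 1 the LWT change had an adjusted p of 0.0268. A second detected probe (chr8:3457229-3457288) gave 0.02 ± 0.15 in WT with an adjusted p of 0.947 over all probes. The WT call was also lost in the authors' value table (0.36, adjusted p = 0.0736) and without WT fenofibrate replicate 1 or WT vehicle replicate 2 or 4 (0.40 to 0.42, adjusted p = 0.0608 to 0.0688).

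Pex11g was also lower in KO than in WT mice. It read 5.06, 5.00, 4.65, 4.84 and 4.82 in KO mice on fenofibrate, against 5.86 to 5.99 in WT. On vehicle it read 5.46, 4.73 and 4.41 in KO mice, against 5.35 to 5.72 in WT, so that the one KO mouse on slide 1 lay within the WT range. The difference was -1.04 ± 0.13, adjusted p = 2.19e-07 on fenofibrate and -0.61 ± 0.15, adjusted p = 0.00302 on vehicle, and the vehicle difference was -0.82 without slide 1 and -0.54, adjusted p = 0.0210 without KO vehicle replicate 2. Without KO vehicle replicate 3 it was -0.38, adjusted p = 0.0627, and the call was lost. The second probe gave -0.43 (adjusted p = 0.0193) and -0.54 (adjusted p = 0.0175) over all probes.

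In LKO mice Pex11g read 5.66, 5.61, 5.44, 5.48 and 5.50 on fenofibrate, against 5.83 to 6.24 in LWT mice, a difference of -0.49 ± 0.13, adjusted p = 0.00241. On vehicle it read 5.76, 5.77, 5.66 and 5.44, against 5.56 to 5.89 in LWT, a difference of -0.10 ± 0.14, adjusted p = 0.810. The second probe gave -0.23 (adjusted p = 0.228 over all probes) on fenofibrate. The effect of the whole-body knockout differed from that of the liver knockout by -0.55 ± 0.18, adjusted p = 0.0479 on fenofibrate. This call was lost at the second probe (-0.20, adjusted p = 0.614) and in 30 of 47 alternative fits in all. On vehicle the same difference was -0.51 ± 0.21, adjusted p = 0.130, and it passed with slide as a block (-0.55, adjusted p = 0.0396) and without slide 1 (-0.72, adjusted p = 0.00264).

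**Figure D2:**
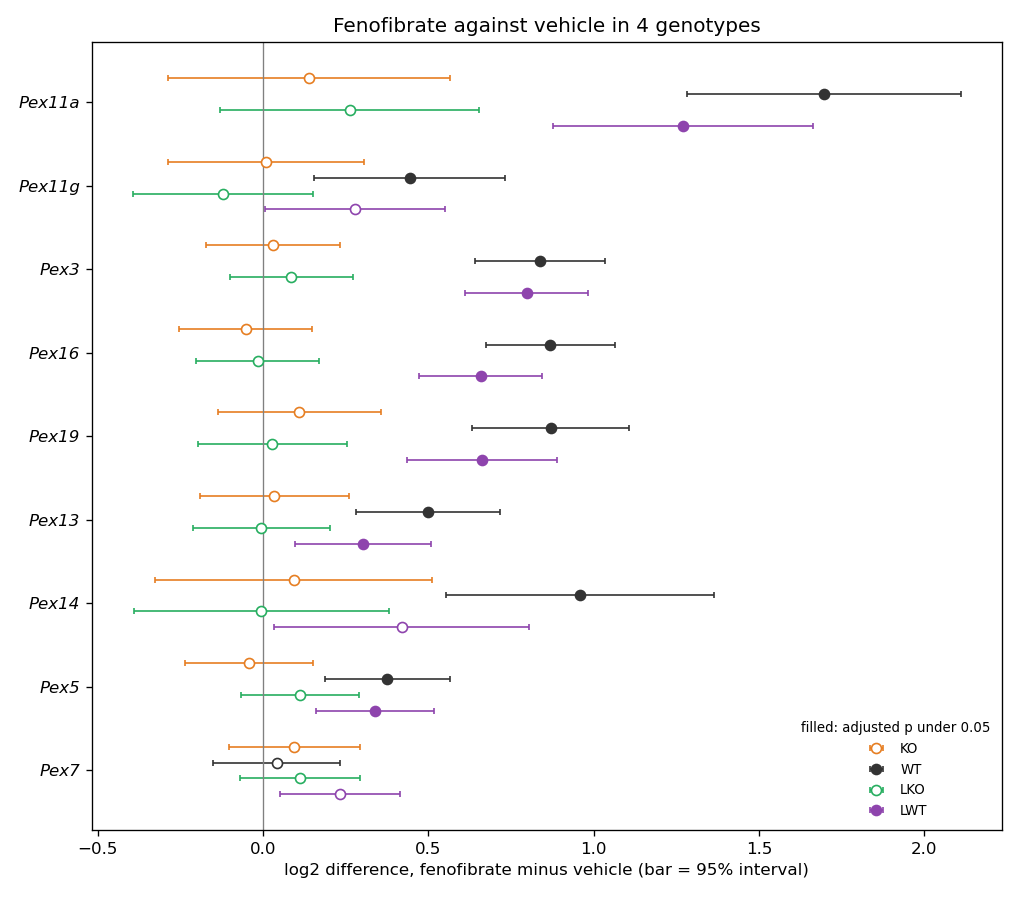
Log2 difference between fenofibrate and vehicle for each peroxin in KO, WT, LKO and LWT mice, with 95% intervals from limma (filled points have an adjusted p under 0.05 over 15881 genes). All points of WT and LWT lie above 0, with 8 and 6 filled, and no point of KO or LKO is filled.

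The 3 genes of membrane assembly, Pex3, Pex16 and Pex19, rose together in both control lines. Pex3 (chr10:13247550-13247609, minus strand) read 4.04, 3.90, 3.86 and 3.81 in WT mice on fenofibrate, against 3.12, 3.02, 3.04 and 3.08 on vehicle. The level in LWT mice was 4.20, 4.05, 4.18, 3.97 and 3.85 on fenofibrate, against 3.41, 3.27, 3.29 and 3.04 on vehicle. No treated mouse of either line overlapped an untreated one. The changes were 0.84 ± 0.10, adjusted p = 1.66e-07 in WT and 0.80 ± 0.09, adjusted p = 1.44e-07 in LWT, close to a 1.79-fold and a 1.74-fold rise.

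Pex16 (chr2:92221196-92221255, plus strand) read 5.58, 5.53, 5.50 and 5.51 in WT mice on fenofibrate, against 4.67, 4.54, 4.67 and 4.77 on vehicle. In LWT mice it read 5.74, 5.58, 5.68, 5.77 and 5.54 on fenofibrate, against 4.87, 5.03, 5.13 and 4.98 on vehicle. The groups were again separate in both lines. The changes were 0.87 ± 0.10, adjusted p = 8.98e-08 in WT and 0.66 ± 0.09, adjusted p = 3.60e-06 in LWT.

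Pex19 (chr1:174065081-174065140, plus strand) read 4.48, 4.55, 4.41 and 4.40 in WT mice on fenofibrate, against 3.52, 3.44, 3.62 and 3.77 on vehicle. LWT mice gave 4.79, 4.58, 4.59, 4.62 and 4.39 on fenofibrate, against 4.08, 3.77, 3.96 and 3.92 on vehicle. Treated mice lay above all untreated mice in both lines. The changes were 0.87 ± 0.12, adjusted p = 2.01e-06 in WT and 0.66 ± 0.11, adjusted p = 5.95e-05 in LWT.

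In the knockouts no fenofibrate change of the 3 passed the test. The KO changes were 0.03 ± 0.10, adjusted p = 0.934 for Pex3, -0.05 ± 0.10, adjusted p = 0.872 for Pex16 and 0.11 ± 0.12, adjusted p = 0.759 for Pex19, and the widest 95% interval of the 3 ran from -0.14 to 0.36. The LKO changes were 0.08 ± 0.09, adjusted p = 0.969 for Pex3, -0.02 ± 0.09, adjusted p = 0.994 for Pex16 and 0.03 ± 0.11, adjusted p = 0.991 for Pex19. All 3 differed in response between each knockout and its wild type. For KO and WT the differences were -0.81 ± 0.14, adjusted p = 0.000159 for Pex3, -0.92 ± 0.14, adjusted p = 3.01e-05 for Pex16 and -0.76 ± 0.17, adjusted p = 0.00267 for Pex19. For LKO and LWT they were -0.71 ± 0.13, adjusted p = 0.000468 for Pex3, -0.67 ± 0.13, adjusted p = 0.000861 for Pex16 and -0.63 ± 0.16, adjusted p = 0.00997 for Pex19.

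Without the drug, the liver knockout lowered all 3. On vehicle Pex3 read 2.80, 2.72, 2.82 and 2.64 in LKO and 3.04 to 3.41 in LWT mice (-0.51 ± 0.10, adjusted p = 0.000618). Pex16 read 4.05, 4.27, 4.27 and 4.26 in LKO and 4.87 to 5.13 in LWT mice (-0.79 ± 0.10, adjusted p = 6.45e-07). Pex19 read 3.12, 3.08, 3.23 and 2.84 in LKO and 3.77 to 4.08 in LWT mice (-0.87 ± 0.12, adjusted p = 4.31e-06). No LKO mouse overlapped a LWT mouse for any of the 3, and LKO mice lay entirely below LWT mice in 7.94% of all genes.

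The whole-body knockout gave a mixed picture on vehicle. Pex19 read 3.38, 2.73 and 2.84 in KO and 3.44 to 3.77 in WT mice, a called difference of -0.60 ± 0.13, adjusted p = 0.000524. It was -0.82, adjusted p = 2.13e-05 without slide 1 and -0.48, adjusted p = 0.00913 without KO vehicle replicate 2, so the call held. Pex3 read 3.06, 2.64 and 3.04 in KO and 3.02 to 3.12 in WT mice (-0.15 ± 0.10, adjusted p = 0.289), with overlap and no call. Pex16 read 4.54, 4.03 and 4.62 in KO and 4.54 to 4.77 in WT mice (-0.27 ± 0.10, adjusted p = 0.0502), just short of a call. Pex16 passed without slide 1 (-0.33, adjusted p = 0.0406), without KO vehicle replicate 1 (-0.34, adjusted p = 0.0247) or 3 (-0.38, adjusted p = 0.0126), and was at -0.08 (adjusted p = 0.538) without replicate 2, the mouse with high Kupffer cell markers. The difference of Pex3 was -0.01 without that mouse and -0.20, adjusted p = 0.214 without slide 1.

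For Pex16 the whole-body effect on vehicle differed from the liver effect by 0.52 ± 0.14, adjusted p = 0.0172. That call was lost without KO vehicle replicate 3 (0.41, adjusted p = 0.0816) and without slide 1 (0.46, adjusted p = 0.0569). For Pex3 the same difference was 0.36 ± 0.14, adjusted p = 0.119, and it was called without KO vehicle replicate 2 (0.49, adjusted p = 0.0211). Between untreated WT and untreated LWT mice the difference was -0.34 ± 0.10, adjusted p = 0.0821 for Pex16, whose groups did not overlap, and -0.34 ± 0.12, adjusted p = 0.164 for Pex19. Neither passed the test, but that of Pex16 did without KO vehicle replicate 2 (adjusted p = 0.0189). Untreated WT mice lay entirely below untreated LWT mice in 3.32% of all genes.

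On fenofibrate the gaps were wide. KO mice read 2.78 to 3.09 for Pex3, against 3.81 to 4.04 in WT (-0.96 ± 0.09, adjusted p = 6.87e-10). They read 4.27 to 4.45 for Pex16, against 5.50 to 5.58 in WT (-1.19 ± 0.09, adjusted p = 6.96e-12), and 2.93 to 3.32 for Pex19, against 4.40 to 4.55 in WT (-1.36 ± 0.11, adjusted p = 2.47e-11). The differences between LKO and LWT mice were -1.22 ± 0.09, adjusted p = 1.90e-12 for Pex3, -1.47 ± 0.09, adjusted p = 3.10e-14 for Pex16 and -1.50 ± 0.10, adjusted p = 1.48e-12 for Pex19. No mice of the compared groups overlapped. KO mice lay entirely below WT mice on fenofibrate in 18.08% of all genes, and LKO mice below LWT mice in 14.97%.

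In order of mean level, treated LWT and treated WT mice led for all 3 genes and overlapped each other. Untreated LWT and then untreated WT mice came next, overlapping for Pex3 and Pex19 and separate for Pex16. The 4 knockout groups lay lowest, each overlapping its neighbour, between 2.75 and 2.94 in mean level for Pex3, 4.20 and 4.40 for Pex16, and 2.98 and 3.10 for Pex19. The highest of them overlapped untreated WT mice for Pex3 and Pex16 and not for Pex19.

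**Figure D3:**
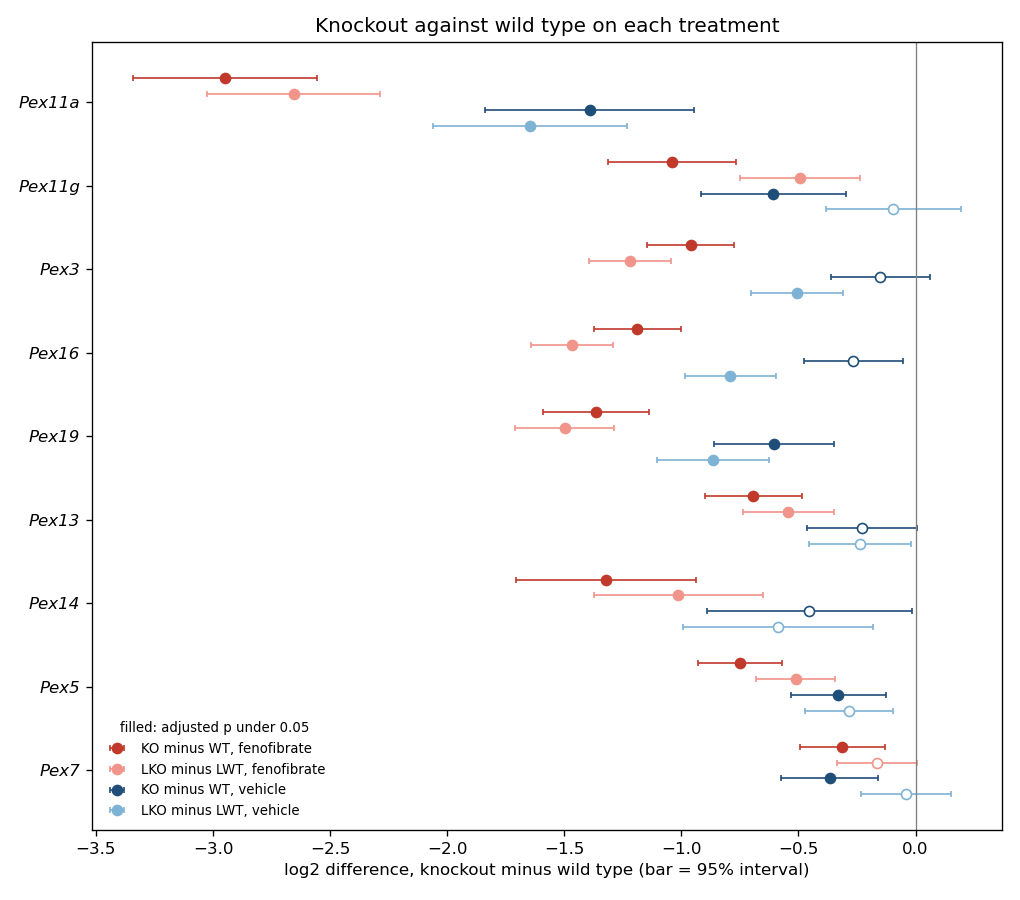
Log2 difference between knockout and wild type for each peroxin, KO against WT and LKO against LWT, on fenofibrate (reds) and on vehicle (blues), with 95% intervals from limma (filled points have an adjusted p under 0.05). Every point lies below 0. On fenofibrate 9 of 9 are filled for KO and 8 of 9 for LKO, and on vehicle 5 and 4.

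Among the import genes, Pex13 and Pex14, which form the docking site, rose in WT mice. Pex14 (chr4:148334648-148334707, minus strand) ranged over 2.03 to 2.47 in WT mice on fenofibrate and 0.71 to 1.71 on vehicle, a rise without overlap of 0.96 ± 0.20, adjusted p = 0.000685. It was 0.76, adjusted p = 0.000935 without slide 1, 0.62, adjusted p = 0.00152 in the authors' value table, and 0.44 on slide 3, which held 2 treated mice and 1 untreated mouse. In LWT mice it ranged over 1.84 to 2.34 on fenofibrate and 1.35 to 1.93 on vehicle, and the change of 0.42 ± 0.19, adjusted p = 0.128 was not called. It was called in the authors' value table (0.40, adjusted p = 0.0299), with slide as a block (0.41, adjusted p = 0.00204) and without slide 1 (0.42, adjusted p = 0.0306). All 3 arrays of slide 1 read low for Pex14, at 0.33 in KO fenofibrate, 0.47 in KO vehicle and 0.71 in WT vehicle, each the lowest of its group.

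Pex13 (chr11:23548909-23548968, minus strand) ranged over 4.52 to 4.87 in WT mice on fenofibrate and 3.93 to 4.33 on vehicle, a rise of 0.50 ± 0.11, adjusted p = 0.000950. In LWT mice it ranged over 4.43 to 4.66 on fenofibrate and 4.07 to 4.45 on vehicle, with a change of 0.30 ± 0.10, adjusted p = 0.0367 and overlap at the edges. The LWT call was lost when any of 6 single LWT mice was left out (adjusted p up to 0.153), and in 13 of 47 alternative fits in all. A second, dimmer probe gave 0.87 ± 0.25 in WT (adjusted p = 0.0160 over all probes) and 0.24 ± 0.24 in LWT (adjusted p = 0.597).

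In KO mice the changes with fenofibrate were 0.09 ± 0.20, adjusted p = 0.897 for Pex14 and 0.03 ± 0.11, adjusted p = 0.931 for Pex13. In LKO mice they were -0.01 ± 0.19 for Pex14 and -0.01 ± 0.10 for Pex13. The response differed between KO and WT by -0.87 ± 0.28, adjusted p = 0.0465 for Pex14 and -0.46 ± 0.15, adjusted p = 0.0469 for Pex13. Both lie close to the threshold and were lost in 25 and 30 of 47 alternative fits, among them Pex14 without KO vehicle replicate 2 (-0.69, adjusted p = 0.149) and Pex13 without slide 1 (-0.41, adjusted p = 0.107). Between LKO and LWT the difference was not called for Pex14 (-0.42 ± 0.27, adjusted p = 0.415) or Pex13 (-0.31 ± 0.14, adjusted p = 0.224).

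On vehicle no docking gene was called, with -0.45 ± 0.21, adjusted p = 0.109 for Pex14 and -0.23 ± 0.11, adjusted p = 0.135 for Pex13 in KO against WT. In LKO against LWT the values were -0.59 ± 0.20, adjusted p = 0.0795 for Pex14 and -0.24 ± 0.11, adjusted p = 0.245 for Pex13. Both Pex14 differences were called with slide as a block (-0.32, adjusted p = 0.0199 in KO, -0.61, adjusted p = 3.75e-05 in LKO). Without slide 1 that of LKO was called (-0.59, adjusted p = 0.00957), and that of KO was -0.47, adjusted p = 0.0604. The KO difference of Pex14 was called without KO vehicle replicate 2 (-0.63, adjusted p = 0.0454) or WT vehicle replicate 1 (-0.65, adjusted p = 0.0179), while it was -0.27, adjusted p = 0.418 without KO vehicle replicate 1. That of Pex13 was called without KO vehicle replicate 3 (-0.36, adjusted p = 0.0320), and was -0.14, adjusted p = 0.445 without replicate 2 and -0.25, adjusted p = 0.151 without slide 1. On fenofibrate both genes were lower in KO than in WT (-1.32 ± 0.19 for Pex14 and -0.69 ± 0.10 for Pex13, adjusted p = 1.27e-06 and 1.85e-06). They were also lower in LKO than in LWT (-1.01 ± 0.18 and -0.54 ± 0.10, adjusted p = 3.76e-05 and 3.84e-05).

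Pex5, the receptor for the common carboxy-terminal targeting signal, rose modestly. It read (chr6:124346891-124346950, minus strand) 3.79, 4.23, 4.01 and 3.87 in WT mice on fenofibrate, against 3.63, 3.50, 3.65 and 3.61 on vehicle, a rise of 0.38 ± 0.09, adjusted p = 0.00346. The level in LWT mice was 4.03, 4.04, 3.96, 3.99 and 4.00 on fenofibrate, against 3.74, 3.53, 3.67 and 3.73 on vehicle, a rise of 0.34 ± 0.09, adjusted p = 0.00658. The groups were separate in both lines, a rise of 1.30-fold in WT and 1.26-fold in LWT. In KO mice the change was -0.04 ± 0.09, adjusted p = 0.894. In LKO mice it was 0.11 ± 0.09, adjusted p = 0.940, and there every treated mouse (3.42 to 3.53) lay above every untreated one (3.37 to 3.39), as in 2.17% of all genes. No other member's treated and untreated mice were separate in a knockout. The difference in response between KO and WT was -0.42 ± 0.13, adjusted p = 0.0369, and without slide 1 it was -0.27, adjusted p = 0.164. That call was lost in 12 of 47 alternative fits.

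Pex7, the receptor for the rarer amino-terminal signal, was the member that fenofibrate left without a call. It read (chr10:19580638-19580696, minus strand) 4.44, 4.50, 4.58 and 4.49 in WT mice on fenofibrate, against 4.48, 4.44, 4.46 and 4.45 on vehicle. In LWT mice it read 4.73, 4.66, 4.44, 4.59 and 4.36 on fenofibrate, against 4.48, 4.21, 4.35 and 4.26 on vehicle. Treated and untreated mice overlapped in both lines. The change was 0.04 ± 0.09, adjusted p = 0.814 in WT (95% interval -0.15 to 0.23) and 0.23 ± 0.09, adjusted p = 0.0693 in LWT (0.05 to 0.41). Without slide 1 the adjusted p of the LWT change was 0.0446. The change was 0.09 ± 0.10 in KO and 0.11 ± 0.09 in LKO (adjusted p = 0.745 and 0.942).

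Both receptors were lower in KO mice. On fenofibrate Pex5 read 3.11 to 3.40 in KO and 3.79 to 4.23 in WT mice (-0.75 ± 0.09, adjusted p = 3.93e-08), and Pex7 read 4.00 to 4.38 in KO and 4.44 to 4.58 in WT mice (-0.31 ± 0.09, adjusted p = 0.00519). On vehicle the differences were -0.33 ± 0.10, adjusted p = 0.0125 for Pex5 and -0.37 ± 0.10, adjusted p = 0.00682 for Pex7. Without KO vehicle replicate 2 they were -0.21, adjusted p = 0.139 for Pex5 and -0.30, adjusted p = 0.0501 for Pex7, and both calls were lost. Without slide 1 they were -0.48, adjusted p = 0.000681 for Pex5 and -0.48, adjusted p = 0.00192 for Pex7. The Pex5 call was also lost in the authors' value table (-0.21, adjusted p = 0.125) and without replicate 3 (-0.29, adjusted p = 0.0606). In LKO mice Pex5 was lower than in LWT on fenofibrate (-0.51 ± 0.08, adjusted p = 1.13e-05) and not called on vehicle (-0.28 ± 0.09, adjusted p = 0.0641), where the adjusted p was 0.0189 without slide 1 and 0.0355 without KO vehicle replicate 2. Pex7 was called in neither LKO comparison (-0.16 ± 0.08, adjusted p = 0.131 on fenofibrate, -0.04 ± 0.09, adjusted p = 0.882 on vehicle). For neither Pex7 nor Pex5 was the whole-body effect called different from the liver effect, though on vehicle that of Pex7 was without slide 1 (-0.44, adjusted p = 0.0419).

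Across the 9 members, KO mice were lower than WT mice in 9 of 9 on fenofibrate, beside 22.0% of all genes called lower, and in 5 of 9 on vehicle (Pex11a, Pex11g, Pex5, Pex7 and Pex19), beside 16.1%. LKO mice were lower than LWT mice in 8 of 9 on fenofibrate, beside 18.3%, and in 4 of 9 on vehicle (Pex11a, Pex3, Pex16 and Pex19), beside 4.26%. The median differences were -1.04 on fenofibrate and -0.37 on vehicle in KO, and -1.01 on fenofibrate and -0.51 on vehicle in LKO, while the medians over all genes lay between -0.03 and 0.01. Two-sided calls on vehicle in KO fell to 4 without KO vehicle replicate 2 and rose to 6 without slide 1. The response to fenofibrate was lower in KO than in WT mice for 7 of 9, beside 5.61% of all genes, and lower in LKO than in LWT mice for 4 of 9, beside 3.75%. These comparisons share samples, so the counts are not separate evidence.

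Some cell type markers were also among the genes called. With fenofibrate, Cps1 and Alas2 were called lower in both control lines, Fgb lower in WT and Pecam1 higher in LWT mice. At an unadjusted p under 0.05, 40.6% of all genes differed between KO and WT mice on vehicle and 49.9% on fenofibrate. Between LKO and LWT mice on fenofibrate it was 43.9%. In the same order, 16.1%, 22.0% and 18.3% of all genes were called lower. No share called higher is given for the knockout comparisons, and none called lower for fenofibrate in the control lines. Marker counts in those directions therefore have no like share beside them. The marker counts are not read as results about a cell type. On vehicle, 2 of 6 Kupffer cell markers (Timd4 and Adgre1) were called higher in KO than in WT mice, and the summed level of the 6 ranged over 6.27 to 8.61 in KO and 6.05 to 6.64 in WT mice. On fenofibrate, 4 of 5 cholangiocyte markers (Krt19, Krt7, Epcam and Sox9) were called lower in KO than in WT mice, with summed levels of 0.73 to 2.32 in KO and 1.30 to 2.61 in WT mice. Both tested red blood cell markers (Hba-a1 and Alas2) were called higher in KO than in WT mice on fenofibrate, with summed levels of 8.39 to 9.32 in KO and 6.93 to 7.60 in WT mice. Of 3 tested pancreatic acinar markers, 1 was called higher (Amy2a5) and 1 lower (Cela1) there, with summed levels of 3.93 to 4.38 in KO and 3.53 to 3.75 in WT mice. In LKO mice on fenofibrate Amy2a5 was also called higher, with summed acinar levels of 4.05 to 4.31 in LKO and 3.31 to 3.99 in LWT mice, and Alas2 was called higher, with summed red blood cell levels of 7.36 to 8.56 in LKO and 7.68 to 8.20 in LWT mice. Of 5 lymphocyte and neutrophil markers, 3 were called higher on vehicle (Ptprc, S100a8 and S100a9) and 2 on fenofibrate (S100a8 and S100a9) in KO than in WT mice, and Cd79a was called lower on both treatments. Their summed levels on vehicle were 3.15 to 4.64 in KO and 3.01 to 3.11 in WT mice. Their summed levels on fenofibrate were 3.20 to 4.87 in KO and 2.91 to 3.23 in WT mice. Of the 8 hepatocyte markers, 3 (Cps1, Fgb and Tat) were called higher in KO than in WT mice on either treatment and none lower. Of 5 endothelial markers, 2 were called higher and 2 lower in KO than in WT mice on vehicle (Stab2, Pecam1, Kdr and Clec4g). On fenofibrate Stab2 and Timd4 were called higher in KO mice, and on vehicle Epcam lower. Of 5 stellate cell markers, Lrat was called lower in KO mice on vehicle and Col1a1 on fenofibrate. LKO mice on fenofibrate had Cps1 called higher than in LWT mice, and Pecam1, Col1a1 and Cd79a lower. The part of these markers in the peroxin differences was not tested.

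The whole-body effect minus the liver effect was called positive for 1 of 9 members on vehicle (Pex16, beside 3.90% of all genes called positive). It was called negative for 1 of 9 on fenofibrate (Pex11g, beside 6.23% called negative). Each share counts only the direction of its called member. At an unadjusted p under 0.05, in either direction, the count was 4 of 9 on vehicle, beside 22.2% of all genes. On fenofibrate it was 3 of 9, beside 24.9%. WT and LWT mice did not differ by the test in any of the 9 on vehicle (0.900% of all genes called) or fenofibrate (0.529%). At an unadjusted p under 0.05 the counts were 4 of 9 on vehicle (Pex11a, Pex14, Pex16 and Pex19, all lower in WT), beside 12.4% of all genes, and 0 of 9 on fenofibrate, beside 9.90%. The difference between the WT and LWT responses was called by limma for 0 of 9, beside 0% of all genes, with 0 of 9 at an unadjusted p under 0.05, beside 4.26%. Its largest estimate was 0.54 ± 0.27 for Pex14 (95% interval -0.02 to 1.10).

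Members called over all arrays had the same direction within the slides that held both groups, which use the same mice. On slide 3 all 8 called members were higher in treated than untreated WT mice, by 0.18 to 1.51. All 6 called in LWT were higher on slides 2 and 3, by 0.26 to 1.83. On slide 5 all 9 members were lower in treated KO than in treated WT mice, by differences of -2.87 to -0.16. The 8 called in treated LKO mice were lower on slides 2, 3 and 5 (-2.70 to -0.42), and the 4 called in untreated LKO mice on slides 2, 3 and 4 (-1.78 to -0.52). On slide 1, with 1 mouse a group, the 5 called in untreated KO mice differed by -1.25 to -0.04. Changes without a call varied in sign between slides. The response of KO mice was -0.40 on slide 1 and 0.42 on slide 2 for Pex11g, and -0.38 on slide 1 and 0.24 on slide 5 for Pex5.

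Other genes of the peroxisome were set beside the 9. Pex2, Pex6, Pex10, Pex26 and Pex5l are 5 of the other peroxins, and limma called 0 of these 5 for fenofibrate in WT and 0 in LWT mice. At an unadjusted p under 0.05 the counts were 1 in WT (Pex10), beside 32.4% of all genes, and 2 in LWT (Pex6 and Pex10), beside 29.8%. Pex10, a subunit of the ubiquitin ligase that acts on import receptors, was at 0.24 ± 0.12, adjusted p = 0.145 in WT and 0.26 ± 0.11, adjusted p = 0.108 in LWT. Pex6, an ATPase that recycles those receptors, was at -0.01 ± 0.10, adjusted p = 0.965 in WT and 0.20 ± 0.09, adjusted p = 0.147 in LWT. Against WT on fenofibrate, KO mice had lower Pex6 (-0.32 ± 0.09, adjusted p = 0.00712) and higher Pex2 (0.21 ± 0.08, adjusted p = 0.0241), another subunit of that ligase. On vehicle Pex6 was lower in KO than in WT mice (-0.36 ± 0.11, adjusted p = 0.0102). Against LWT on fenofibrate, LKO mice had lower Pex10 (-0.32 ± 0.10, adjusted p = 0.0150).

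Of 5 tested genes of peroxisome division and membrane contact, limma called 0 in WT and 0 in LWT mice. At an unadjusted p under 0.05 the counts were 0 in WT, beside 32.4% of all genes, and 1 in LWT (Vapb), beside 29.8%. Dnm1l, the dynamin that cuts the constricted membrane, was at 0.18 ± 0.11, adjusted p = 0.286 in WT, and its adaptors Fis1 and Mff at -0.10 ± 0.09 and -0.14 ± 0.09. Acbd5, which ties peroxisomes to the endoplasmic reticulum, was at 0.26 ± 0.14, adjusted p = 0.188 in WT, yet was lower in KO than WT mice on fenofibrate (-1.17 ± 0.13, adjusted p = 1.76e-08) and on vehicle (-1.26 ± 0.15, adjusted p = 1.70e-07). It was also lower in LKO than LWT mice (-1.01 ± 0.12 on fenofibrate and -0.76 ± 0.14 on vehicle). In KO against WT mice, Vapb, its partner in the endoplasmic reticulum, was lower on both treatments (-0.24 ± 0.06 and -0.19 ± 0.07), and on fenofibrate Dnm1l was lower (-0.28 ± 0.11) and Fis1 higher (0.21 ± 0.08).

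Genes for the cargo of both import receptors were tested next. Of 9 enzymes carried by PEX5, 5 rose in WT, beside 10.1% of all genes, and 6 rose, beside 10.0%, and 1 fell in LWT mice. Ehhadh, the bifunctional enzyme of peroxisomal fatty acid oxidation, rose by 3.59 ± 0.30 in WT and 3.05 ± 0.29 in LWT. Hao1, a glycolate oxidase, fell in LWT (-0.47 ± 0.11, adjusted p = 0.00295). The others of the 9 that rose in both lines were Hsd17b4 (0.83 ± 0.10 in WT), Crot (1.27 ± 0.20), Decr2 (0.86 ± 0.13) and Hacl1 (0.70 ± 0.23), enzymes of fatty acid handling, and catalase (Cat) rose in LWT (0.49 ± 0.16). The 9 had a median change of 0.70 in WT and 0.62 in LWT. On vehicle, 6 of the 9 were called lower in KO than WT, beside 16.1% of all genes, and 4 of 9 in LKO than LWT mice, beside 4.26%. Of 4 genes for PEX7 cargo, 3 rose in both lines, beside 10.1% of all genes called higher in WT and 10.0% in LWT. The thiolase genes Acaa1a and Acaa1b, close paralogs whose probes may read both, rose by 0.85 ± 0.11 and 1.96 ± 0.22 in WT, and Agps, of ether lipid synthesis, by 0.36 ± 0.07. Phyh, of phytanate oxidation, was at 0.06 ± 0.08. Of 3 genes linked to the removal of peroxisomes, Usp30, a deubiquitinase that restrains it, fell in WT (-0.28 ± 0.08, adjusted p = 0.00984) and was at -0.07 ± 0.07, adjusted p = 0.590 in LWT. None of the genes named here was called for fenofibrate in KO mice, beside 0.0126% of all genes, or in LKO mice, beside 0%. With almost no gene called, this is no trait of the genes named.

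**Figure D4:**
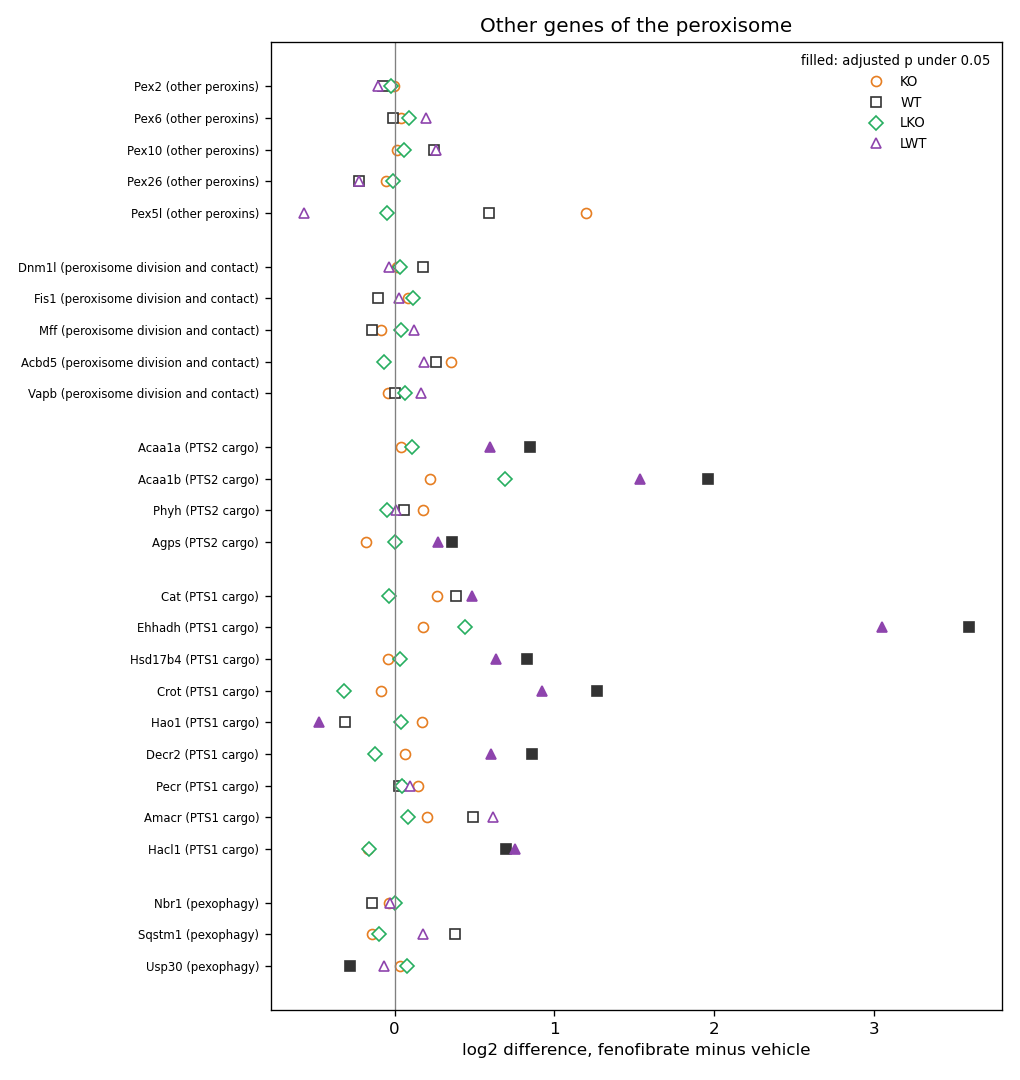
Log2 difference between fenofibrate and vehicle for 5 of the other peroxins, division and contact genes, receptor cargo (PTS2 read by PEX7, PTS1 by PEX5) and removal genes in KO (circles), WT (squares), LKO (diamonds) and LWT (triangles), with filled symbols at an adjusted p under 0.05. No KO or LKO symbol is filled, beside 0.0126% of all genes called in KO and 0% in LKO. Ehhadh lies farthest right, at 3.59 in WT.

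By Pearson correlation of log2 level over the 34 arrays, which share the 8 groups, the genes most like Pex11a were Rtf2 (r = 0.988), Mcrip2 (0.983), Acot8 (0.983), Acadl (0.982) and Tgoln2 (0.982). Those most like Pex19 were Eci1 (0.981), Hadhb (0.980) and Tmem134 (0.978), and those most like Pex16 were Wdr73 (0.972), Tmem43 (0.971) and Mmadhc (0.966). Pex3 lay closest to Mrpl17 (0.976), Tlr5 (0.975) and Grpel1 (0.968). For Pex11g they were Cebpzos (0.957), Acad9 (0.950) and Mccc1 (0.936), and for Pex5 Entpd5 (0.952), Tmem135 (0.950) and Kdsr (0.949). For Pex13 they were Scyl2 (0.944), Picalm (0.937) and Acot5 (0.935), for Pex14 Krtap5-5 (0.955), 2310081J21Rik (0.950) and Ndufa8 (0.944), and for Pex7 Commd1 (0.928), Nqo2 (0.909) and Akr1e1 (0.902). Among the 9 members the highest pairs were Pex3 with Pex16 (0.961) and Pex16 with Pex19 (0.961), and the lowest was Pex7 with Pex14 (0.544).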

How the data were processed

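RNA from 34 livers was hybridised to 34 one-colour Agilent arrays, 1 mouse each, in 8 groups of 3 to 5. Per the file headers, the deposited scanner files hold each spot's processed signal, an intensity already corrected for background by the scanner software, with flags for spots above background. Per the submitters' processing notes, Agilent Feature Extraction 10.10.1.1 and limma were used. The authors' deposited value table holds log2 values of the same arrays, used as an alternative. Its columns correlated with log2 intensity at 0.9996 or more on slides 2 to 5 and at 0.993 on slide 1.

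Control spots were left out, spots of a probe averaged, and log2 of the processed signal taken relative to each array's 75th percentile. A probe was kept if, in 1 or more groups, all arrays showed it well above background, and the brightest such probe stood for a gene (15881 genes). limma 3.58.1 in R 4.3.3 fitted 8 group means over all 34 arrays, with 10 comparisons of 2 groups and 5 of their differences, two-sided, adjusted by Benjamini-Hochberg over all genes at 0.05. The procedure was tested on simulated data.

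Gene names came from the files, updated through RefSeq accessions, symbols and synonyms for 32749 probes, of which 1350 kept the file's name. The members and lists were chosen with earlier results of these data known. All 9 members are named in the comparisons, the called genes of each list were to be named, and the 3 genes (5 for Pex11a) of highest correlation with each member. Genes of the lists without a call were named after their values were seen, and called cargo genes of the knockout comparisons are given as counts. Some genes of the lists are not reported here, and the counts leave them out. The number of arrays limits the precision. The labels number replicates within groups. Deviations from the group mean were correlated between same-numbered mice, and mice with different numbers were not compared. Every pair was positive in the 3 comparisons of 2 vehicle groups (r 0.104 to 0.404). Every pair was also positive, and lower at the bottom, between LKO and LWT mice on fenofibrate (r 0.0413 to 0.236). In each of the other comparisons at least 1 pair was negative. Some of these pairs shared a slide and others did not, and the pair at 0.404 (replicate 1 of KO and WT) shared slide 1. Nothing in the labels says that a number marks a shared litter or day. Alternatives varied the background, scaling, filter, probe choice, variance prior, samples fitted, slide, replicate number and value table, left out each replicate, and, chosen after seeing the data, left out slide 1.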

Additional observations from a re-analysis of the deposited data

Results flagged for a closer look

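In 4 of 63 sets tested, each of 1 gene in 1 group, 1 mouse lay far from the rest by Dixon's test. Chance gives about 1 in 20, but the sets share mice and are not separate draws. KO vehicle, with 3 mice, was not tested. Pex11a (5.93, others 6.19 to 6.23) and Pex16 (4.05, others 4.26 to 4.27) were low in LKO vehicle replicate 1. Pex7 was high in LKO vehicle replicate 3 (4.40, others 4.23 to 4.25), and Pex13 in WT fenofibrate replicate 2 (4.87, others 4.52 to 4.56).

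The response to fenofibrate differed between KO and WT mice, by the interaction contrast in limma, for Pex11a (-1.56), Pex16 (-0.92), Pex14 (-0.87), Pex3 (-0.81), Pex19 (-0.76), Pex13 (-0.46) and Pex5 (-0.42). It differed between LKO and LWT mice for Pex11a (-1.01), Pex3 (-0.71), Pex16 (-0.67) and Pex19 (-0.63). The whole-body effect minus the liver effect was 0.52 for Pex16 on vehicle and -0.55 for Pex11g on fenofibrate.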

How the results depend on the processing

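Of 53 calls of a peroxin in a comparison, 40 held in each of 47 alternative fits and 13 were lost in at least 1, and no call reversed. For the whole-body minus the liver effect on fenofibrate, 1 peroxin was called in the fit reported, and 0 with the authors' value table, no detection filter, the second probe, the mean of detected probes or a replicate block. On vehicle that count was 1, against 2 with slide as a block, 2 with a replicate block, 2 without slide 1 and 0 with only the groups compared. The difference in response between KO and WT had 7 calls, and 4 with no detection filter, 4 at the second probe and 4 with only the groups compared. KO against WT on vehicle had 5 calls, and 1 with only the groups compared. The last setting fitted fewer arrays, and the cause of these changes was not tested. Leaving out 1 replicate gave 0 to 1 calls for the whole-body minus the liver effect on fenofibrate and 0 to 3 on vehicle (3 without KO vehicle replicate 1, 2 without replicate 2, 0 without replicate 3). It gave 4 to 7 for the KO minus WT response (4 without WT vehicle replicate 2, KO fenofibrate replicate 5 or WT fenofibrate replicate 2), and 0 to 1 for WT against LWT on vehicle, the 1 being Pex16 without KO vehicle replicate 2 (adjusted p = 0.0189).

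With the replicate block, which pairs mice by number, the LWT response of Pex7 was called (0.28, adjusted p = 0.0329), the KO minus WT response of Pex5 was not (-0.37, adjusted p = 0.0980), and the Pex11g whole-body minus liver effect was -0.52 (adjusted p = 0.0629) on fenofibrate and -0.57 (adjusted p = 0.0481) on vehicle. It changed no peroxin call in the 3 comparisons of 2 vehicle groups.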

Other observations

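The Pex11a probe was printed as 10 spots on each array. The SD of log2 intensity between those spots had a median of 0.0415 over the arrays (0.0217 to 0.0722), against an SD between mice of 0.14 to 0.46 within groups.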
